A study of Homo sapiens with 6 samples.

Results

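The 10 genes SLC2A1, HK2, PFKP, ALDOA, TPI1, GAPDH, PGK1, ENO1, PKM and LDHA were taken by name from the 32985 gene rows of the RNA-seq table, and each matched 1 row. They encode the main glucose transporter and 9 enzymes of glycolysis, 1 isoenzyme for most steps. RNA was sequenced from 8505C, an established cell line of anaplastic thyroid cancer (ATC). There were 3 libraries of cells given control siRNA (siCtrl, genotype WT in the labels) and 3 of cells given siRNA against NUF2 (siNUF2, NUF2 knockdown in the labels), all labelled 24 h. Both groups were grown in the same medium and both had been transfected, so an untransfected state was not compared. The study's methods give a single NUF2 siRNA sequence, and each group is a transient knockdown or control in 1 cell line.

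Glycolysis converts glucose to pyruvate in the cytosol. Glucose enters through transporters such as SLC2A1, hexokinase traps it as glucose 6-phosphate, phosphofructokinase commits it to the pathway, aldolase and triosephosphate isomerase yield triose phosphates, and GAPDH, phosphoglycerate kinase, enolase and pyruvate kinase carry these to pyruvate, which lactate dehydrogenase can reduce to lactate. Many tumours, ATC among them, take up and ferment much glucose even with oxygen present, and most of these genes are known targets of HIF-1, the factor stabilised in hypoxia, and of MYC. GAPDH is also a customary reference gene, and the study's RT-qPCR was standardized to it.

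Total counts on genes ranged from 61257859 to 69755291 per library, and the 10 glycolysis genes together held between 1.51% and 2.10% of them. NUF2, which encodes a kinetochore subunit, fell from 13.9 ± 1.41 FPKM (SD, n = 3) in siCtrl to 1.71 ± 0.290 FPKM (SD, n = 3) in siNUF2 libraries, in the direction the labels give. FPKM is a fragment count divided by transcript length and library size, so that it allows levels of genes to be compared. Of the defining thyroid markers, TG, FOXE1 and SLC5A5 stayed below 0.03 FPKM in every library and PAX8 was between 0.379 and 0.774 FPKM, while NKX2-1 (14.6 to 21.5 FPKM) and HHEX (5.16 to 6.58 FPKM) were present. KRT8 and KRT18 were high, with at least 72.0 and 136.5 FPKM in each library, and EPCAM and CDH1 stayed below 0.25 FPKM. The 10 markers of immune, endothelial, fibroblast and blood cells summed to between 8.47 and 22.5 FPKM with siCtrl and between 10.6 and 11.2 FPKM with siNUF2. The highest sum was that of siCtrl library 1, with HBB at 12.4 FPKM. HBB was 4.24 FPKM in siNUF2 library 1 and at most 0.073 FPKM in the libraries numbered 2 and 3. The part of these markers in the results was not tested. In bulk RNA, fewer cells of a type and less RNA per cell cannot be told apart.

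The levels of the 10 genes spanned about 2 orders of magnitude. GAPDH came first, with a mean of 1460 FPKM over the 6 libraries, rank 15 of all genes in each siCtrl library and rank 18 in each siNUF2 library. Without the genes of the mitochondrial chromosome it was rank 3 in each siCtrl library and rank 5 in each siNUF2 library. ENO1 (mean 802 FPKM) and LDHA (mean 490 FPKM) followed, and the ranges of these 3 genes over the libraries did not overlap. TPI1 (251 FPKM), ALDOA (235 FPKM), PKM (217 FPKM) and PGK1 (155 FPKM) overlapped in their ranges and were not separated by the spread between libraries. PFKP (47.6 FPKM) stood apart from the genes above and below it. SLC2A1 (13.8 FPKM) and HK2 (12.2 FPKM), which open the pathway, were lowest and overlapped each other.

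The promoters of LDHA, PGK1 and SLC2A1 are shown because these 3 genes varied together between libraries. Each window holds the 250 bases before the canonical start site of GENCODE release 44, read from the GRCh38 genome, the build of the deposited coordinates. Capitals mark the letters ACGTG on either strand (CACGT where the reverse strand carries it), 1 form of the core of the hypoxia response element bound by HIF-1, and CACGTG, the E-box bound by MYC and its relatives, which holds ACGTG on both strands. The windows lie at chr11:18394313-18394562 (plus strand), chrX:78103998-78104247 (plus strand) and chr1:42958869-42959118 (minus strand).
LDHA: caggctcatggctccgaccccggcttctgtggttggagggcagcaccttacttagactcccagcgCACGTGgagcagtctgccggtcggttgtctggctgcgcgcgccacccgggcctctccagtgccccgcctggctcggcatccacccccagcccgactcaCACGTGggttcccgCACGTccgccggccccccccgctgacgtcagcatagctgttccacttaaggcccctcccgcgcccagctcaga
PGK1: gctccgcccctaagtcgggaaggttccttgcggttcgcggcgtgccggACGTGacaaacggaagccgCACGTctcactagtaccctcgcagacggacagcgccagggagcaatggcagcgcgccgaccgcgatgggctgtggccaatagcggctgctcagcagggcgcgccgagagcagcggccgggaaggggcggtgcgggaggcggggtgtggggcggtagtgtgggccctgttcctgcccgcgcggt
SLC2A1: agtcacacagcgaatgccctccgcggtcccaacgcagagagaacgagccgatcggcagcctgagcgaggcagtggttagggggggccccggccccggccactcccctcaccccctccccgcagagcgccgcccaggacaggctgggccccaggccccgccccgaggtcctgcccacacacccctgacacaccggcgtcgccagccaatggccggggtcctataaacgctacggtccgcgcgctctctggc

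The LDHA window held ACGTG 5 times, counting both strands, which includes 2 CACGTG, and the PGK1 window held ACGTG 2 times. ALDOA held ACGTG 1 time and HK2 2 times, and SLC2A1, PFKP, TPI1, ENO1 and PKM held none in this window, 1 window not being reported. Of 19969 windows of the same length before annotated starts, 20.5% held ACGTG and 7.86% held CACGTG. Letters in a window are not evidence of binding, other forms of the core were not counted, and elements elsewhere were not searched. The 7 letters TATGGAA, which pair with the seed of the NUF2 siRNA antisense strand, occurred in 0 of the 10 canonical 3′ UTRs, against 13.8% of 19195 3′ UTRs of at least 50 bases. The shorter word ATGGAA within it occurred in those of HK2 (1 time), TPI1 (1 time) and PGK1 (2 times) only, against 40.55% of the 19195. An effect of the siRNA through such words was not tested.

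**Figure D1:**
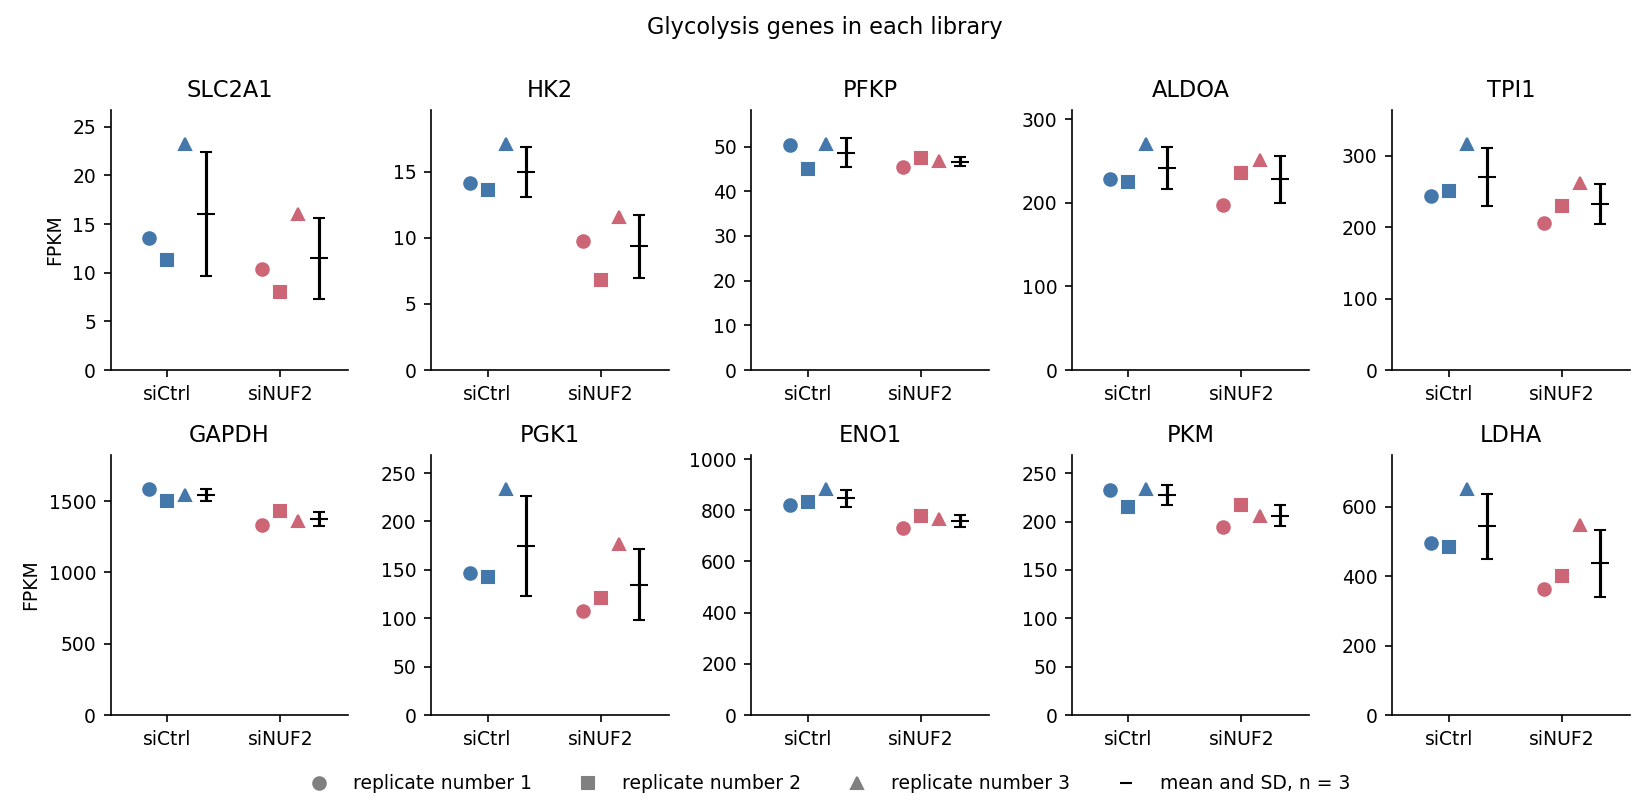
FPKM (vertical axis, linear and starting at 0) of each of the 10 genes in the 3 siCtrl (blue) and 3 siNUF2 (red) libraries, with the marker shape giving the replicate number and the black bar the mean and SD of a group. Triangles (number 3) are highest in both groups for SLC2A1, HK2, ALDOA, TPI1, PGK1 and LDHA, whereas GAPDH keeps to between 1334 and 1586 FPKM.

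The first question was whether NUF2 knockdown changed the 10 genes. All 10 had a log2 fold change below 0 (siNUF2 minus siCtrl, median -0.17), where the median over all 11725 genes tested was 0.01 and 48.9% lay below 0. None of the 10 passed an adjusted p of 0.05 with edgeR's quasi-likelihood test, against 3.99% of all genes in either direction and 2.46% called lower. Only HK2 had an unadjusted p under 0.05. When the fit took the replicate number as a block, 4 of the 10 were called and all 4 were lower (HK2, SLC2A1, PGK1 and LDHA), against 14.5% of all genes called in either direction and 7.91% called lower. DESeq2 without the block called 1 of the 10, HK2. The 10 genes share libraries and a pathway and are not independent replicates of the knockdown.

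**Figure D2:**
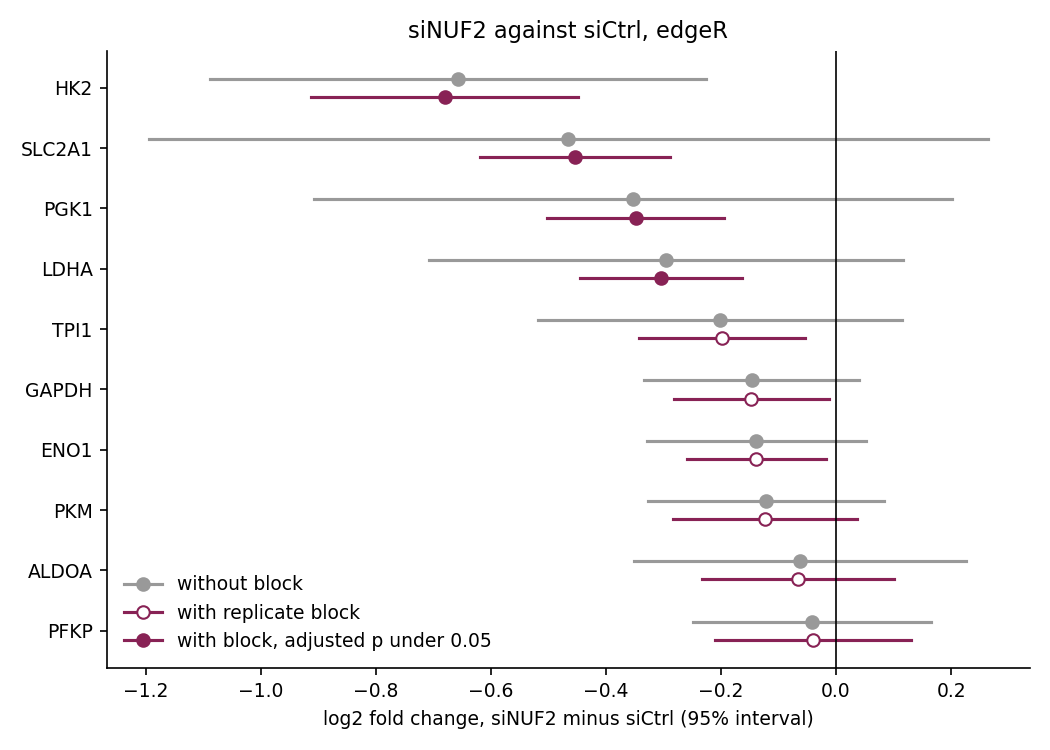
Log2 fold change of siNUF2 minus siCtrl (horizontal axis) with its 95% interval for each gene, from edgeR without the replicate block (grey) and with it (purple), filled purple points having an adjusted p under 0.05. The estimates hardly differ between the fits, and the intervals of SLC2A1, PGK1, LDHA, TPI1, GAPDH and ENO1 leave 0 only with the block, of which the first 3 also passed the adjusted p.

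SLC2A1 and HK2, the entry of glucose and its first phosphorylation, had the lowest estimates. In the order of replicate numbers 1, 2 and 3, used for all genes, SLC2A1 measured 13.6, 11.3 and 23.3 FPKM with siCtrl and 10.4, 8.0 and 16.1 FPKM with siNUF2. The groups overlapped, yet within each number the siNUF2 library was lower. The log2 fold change was -0.47 with a standard error of 0.32 (edgeR adjusted p = 0.510) and -0.45 with a standard error of 0.07 with the replicate block (edgeR adjusted p = 0.00699). Without the block, leaving out 1 library moved this estimate from -0.79 (without siNUF2 library 3) to -0.10 (without siCtrl library 3). With the block, leaving out 1 library gave between -0.49 and -0.42, and SLC2A1 was called each time. For any gene, block fits that leave out either library of a number rest on the same remaining pairs and are not separate checks. HK2, the inducible hexokinase of many tumours, measured 14.2, 13.6 and 17.1 FPKM with siCtrl and 9.73, 6.84 and 11.6 FPKM with siNUF2. Every siNUF2 library lay below every siCtrl library, and the mean was 62.6% of the control mean. Its log2 fold change was -0.66 with a standard error of 0.19 (edgeR adjusted p = 0.111, unadjusted p = 0.0079), and -0.68 with a standard error of 0.10 with the block (edgeR adjusted p = 0.0055). Single-gene permutation cannot go below 0.1 with 3 libraries against 3, and HK2 reached that value (exact two-sided permutation test, p = 0.1).

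PGK1, the first ATP-yielding enzyme, and LDHA, the lactate-forming subunit, were called only with the block. PGK1 measured 147, 143 and 234 FPKM with siCtrl and 107, 121 and 176 FPKM with siNUF2, so that siNUF2 library 3 exceeded siCtrl libraries 1 and 2. Its log2 fold change was -0.35 with a standard error of 0.24 (edgeR adjusted p = 0.512), and -0.35 with a standard error of 0.07 with the block (edgeR adjusted p = 0.0146). LDHA measured 495, 483 and 651 FPKM with siCtrl and 364, 399 and 546 FPKM with siNUF2. Here too the third siNUF2 library lay above the first and second siCtrl libraries. The log2 fold change of LDHA was -0.29 with a standard error of 0.18 (edgeR adjusted p = 0.451), and -0.30 with a standard error of 0.06 with the block (edgeR adjusted p = 0.0172). Without the block, leaving out siNUF2 library 3 or siCtrl library 3 moved PGK1 to -0.59 or -0.08 and LDHA to -0.49 or -0.14. With the block, leaving out 1 library gave between -0.42 and -0.30 for PGK1 and between -0.34 and -0.24 for LDHA. Neither gene was then called without siCtrl library 3 or without siNUF2 library 3. Without both libraries numbered 3, the block fit called 2 of the 10 genes, SLC2A1 and HK2. Leaving out either library numbered 2 raised the count with the block from 4 to 7, adding TPI1, GAPDH and PKM, and leaving out both gave 5, adding TPI1 alone. With the block these fits rest on the same pairs, numbered 1 and 3, and are not separate checks. GAPDH was at -0.20 in each, with an edgeR adjusted p of 0.047 without siCtrl library 2, 0.049 without siNUF2 library 2 and 0.071 without both.

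GAPDH and ENO1 were low in every siNUF2 library but by a small amount. GAPDH, which oxidises glyceraldehyde 3-phosphate, measured 1586, 1503 and 1544 FPKM with siCtrl and 1334, 1429.5 and 1362 FPKM with siNUF2, and ENO1, the enolase of most tissues, 822, 833 and 884 FPKM against 730.1, 776 and 767 FPKM. Neither gene's groups overlapped. On the log2 scale GAPDH differed by -0.15 with a standard error of 0.08 (edgeR adjusted p = 0.401; with the block 0.136) and ENO1 by -0.14 with a standard error of 0.08 (edgeR adjusted p = 0.440; with the block 0.121). In all, 3 of the 10 genes (HK2, GAPDH and ENO1) had every siNUF2 library below every siCtrl library on the CPM scale (counts scaled to the library size after TMM normalization), against 12% of all genes. Within the replicate numbers, 7 of the 10 were lower in siNUF2 in all 3 pairs, against 25.3% of all genes.

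The other 4 genes did not pass in either fit. TPI1, which interconverts the triose phosphates, measured 244, 250.4 and 317 FPKM with siCtrl and 205, 229 and 261 FPKM with siNUF2 (log2 fold change -0.20, standard error 0.14). ALDOA, the aldolase of muscle and most tumours, measured 229, 226 and 271 FPKM against 197, 236 and 252 FPKM (log2 fold change -0.06, standard error 0.13). PFKP, the platelet-type phosphofructokinase, measured 50.3, 45.02 and 50.6 FPKM against 45.4, 47.5 and 46.9 FPKM (log2 fold change -0.04, standard error 0.09). PKM, whose spliced forms give both main pyruvate kinases of dividing and muscle cells, measured 233, 215 and 234 FPKM against 195, 217 and 206 FPKM (log2 fold change -0.12, standard error 0.09). The groups overlapped for all 4. Their 95% intervals without the block ran from -0.52 to 0.12 for TPI1, from -0.35 to 0.23 for ALDOA, from -0.25 to 0.16 for PFKP and from -0.33 to 0.08 for PKM. TPI1 moved to -0.30 without siNUF2 library 3 and to -0.07 without siCtrl library 3. With the block, leaving out 1 library gave between -0.25 and -0.17 for TPI1. The signs of ALDOA and PFKP were not stable, and reached 0.04 for ALDOA and 0.01 for PFKP in fits that left out libraries.

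The genes also differed between replicate numbers. In a model with group and number, 4 of the 10 genes (SLC2A1, TPI1, PGK1 and LDHA) passed the edgeR F-test of number at an adjusted p of 0.05, against 7.6% of all genes. All 4 were highest in number 3, against 2.92% of all genes called with number 3 highest. Whether or not they passed, 9 of the 10 genes had fitted contrasts over both groups above 0 for number 3 against numbers 1 and 2, GAPDH being the exception, against 31.8% of all genes. By group, number 3 was highest for 9 of the 10 with siCtrl and for 6 of the 10 with siNUF2, where PFKP, ENO1, PKM and GAPDH were highest in number 2. Neither the labels nor the methods say what libraries with the same number share. The numbers are therefore named here as they stand, and a culture, a day or a sequencing run cannot be told apart as what they mark.

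SLC2A1 differed most between numbers, by 0.71 (standard error 0.09) from 1 to 3 and by 1.02 (standard error 0.09) from 2 to 3 on the log2 scale (edgeR F-test of number, adjusted p = 0.0023), larger in size than its group difference of -0.45. PGK1 was higher in number 3 by 0.70 than in number 1 and by 0.62 than in number 2 (edgeR adjusted p = 0.0063). For LDHA these differences were 0.50 and 0.44 (edgeR adjusted p = 0.0143), and for TPI1 0.37 and 0.26 (edgeR adjusted p = 0.0490). HK2 was higher in number 3 by 0.27 and 0.54 but did not pass (edgeR adjusted p = 0.0751), and ALDOA by 0.31 and 0.18 (edgeR adjusted p = 0.130). The remaining genes differed little, PFKP, ENO1 and PKM by at most 0.10 in these contrasts, and GAPDH by 0.01 and -0.02 (edgeR adjusted p = 0.957). TPI1 and PGK1 act just before and just after GAPDH in the pathway, and the 95% intervals of number 3 minus number 1 were 0.20 to 0.55 for TPI1, -0.16 to 0.17 for GAPDH and 0.52 to 0.89 for PGK1, so that GAPDH overlapped neither. For number 3 minus number 2 the interval of GAPDH, -0.18 to 0.15, overlapped that of TPI1, 0.09 to 0.44, but not that of PGK1, 0.43 to 0.81. Leaving out siCtrl or siNUF2 library 3 reduced the genes called for number from 4 to 2, SLC2A1 and PGK1. TPI1, near the threshold, was also not called with upper-quartile scaling, with limma on FPKM or without siNUF2 library 1.

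**Figure D3:**
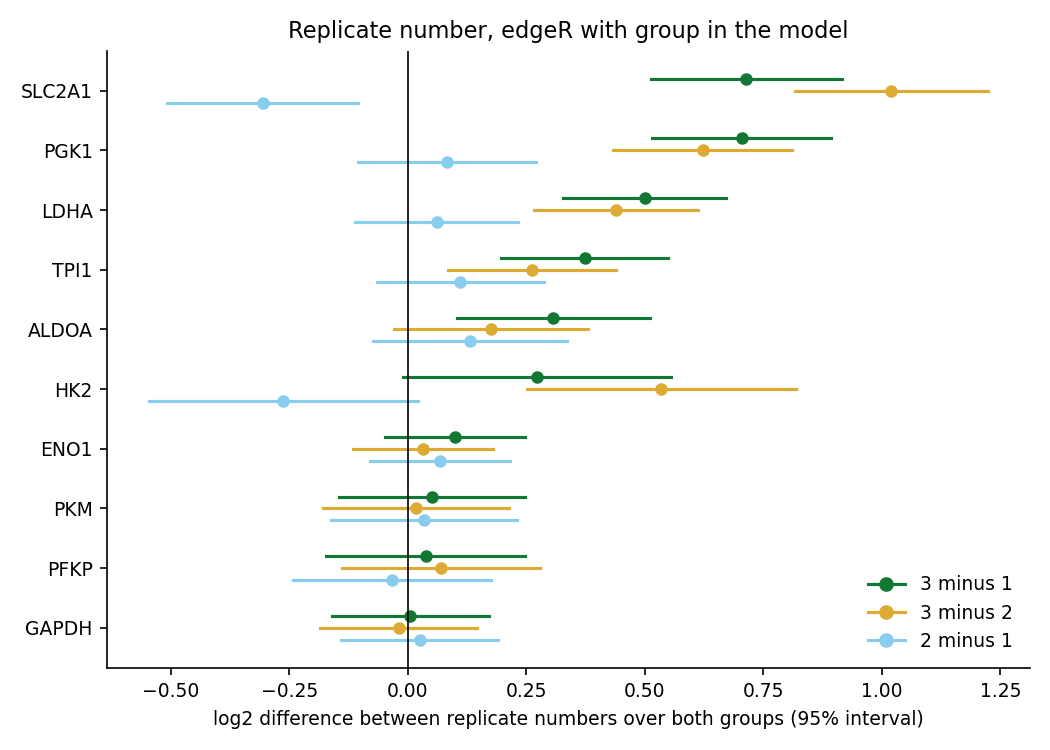
Log2 difference between replicate numbers over both groups (horizontal axis) with its 95% interval for each gene, as number 3 minus 1 (green), 3 minus 2 (yellow) and 2 minus 1 (light blue), from edgeR with group in the model. The green and yellow intervals of SLC2A1, PGK1, LDHA and TPI1 lie above 0, and all 3 of GAPDH, PFKP, PKM and ENO1 span 0.

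Other glycolysis genes from the list showed both directions. Of 36 listed, 34 had a row and 20 were tested, 1 was called higher and 1 lower. PFKL, the liver-type phosphofructokinase, rose from 10.8, 10.4 and 12.6 FPKM in siCtrl to 14.9, 16.7 and 16.2 FPKM with siNUF2 (log2 fold change 0.52, standard error 0.11, edgeR adjusted p = 0.0414). SLC16A3, the lactate exporter MCT4, fell from 35.7, 30.4 and 42.9 FPKM to 18.6, 18.4 and 24.7 FPKM (log2 fold change -0.80, standard error 0.16, edgeR adjusted p = 0.0388). Neither gene's groups overlapped. These 2 calls of 20 stand beside 3.99% of all genes. With the block, 6 of the 20 were called, against 14.5% of all genes, 1 higher (PFKL) and 5 lower (SLC16A3, SLC2A3, ENO2, PFKFB4 and HK1). SLC2A3, a high-affinity glucose transporter, had a log2 fold change of -1.11 with the block (edgeR adjusted p = 0.0014), and ENO2, the neuronal enolase, of -0.94 (edgeR adjusted p = 0.0015). The F-test of number passed for 4 of the 20 (SLC2A3, ENO2, PFKFB4 and SLC16A3), against 7.6% of all genes, all with number 3 highest. The median log2 fold change of the 20 was -0.14.

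The balance between isoenzymes was described by each gene's share of the FPKM summed over the named family members, and no difference in share passed its test. PFKP held 73.0%, 71.3% and 70.5% of the phosphofructokinase sum in siCtrl and 65.0%, 65.5% and 64.8% in siNUF2 libraries, a difference of -6.46 percentage points, and PFKL held 16.6% ± 0.953 and 22.3% ± 0.843 (SD, n = 3). SLC2A1 held 77.2% ± 1.59 of the sum of SLC2A1 and SLC2A3 with siCtrl and 84.2% ± 1.93 with siNUF2 (SD, n = 3). HK2 held 29.2% ± 1.43 of the sum of HK1 and HK2 with siCtrl and 23.8% ± 3.03 with siNUF2 (SD, n = 3). Groups did not overlap for these genes or for ENO1 against ENO2 (97.4% and 98.5%), and they overlapped for LDHA against LDHB (68.9% ± 4.93 and 64.5% ± 6.07, SD, n = 3), a difference of -4.40 percentage points that became -7.86 without siNUF2 library 3 and -1.56 without siCtrl library 3. Adjustment was over the 17 shares tested (exact two-sided permutation tests, lowest p = 0.1, adjusted p = 0.213), and 3 libraries against 3 cannot give a lower p. The share of LDHA was highest in the libraries numbered 3, with 74.6% and 71.4%, and between 60.1% and 66.3% in the others. Within each number it was also lower with siNUF2, at 60.1%, 62.0% and 71.4% against 66.3%, 65.9% and 74.6% with siCtrl. GAPDHS, PGK2 and ALDOC held less than 0.28% of their families in each library, and PKLR was not analysed here.

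**Figure D4:**
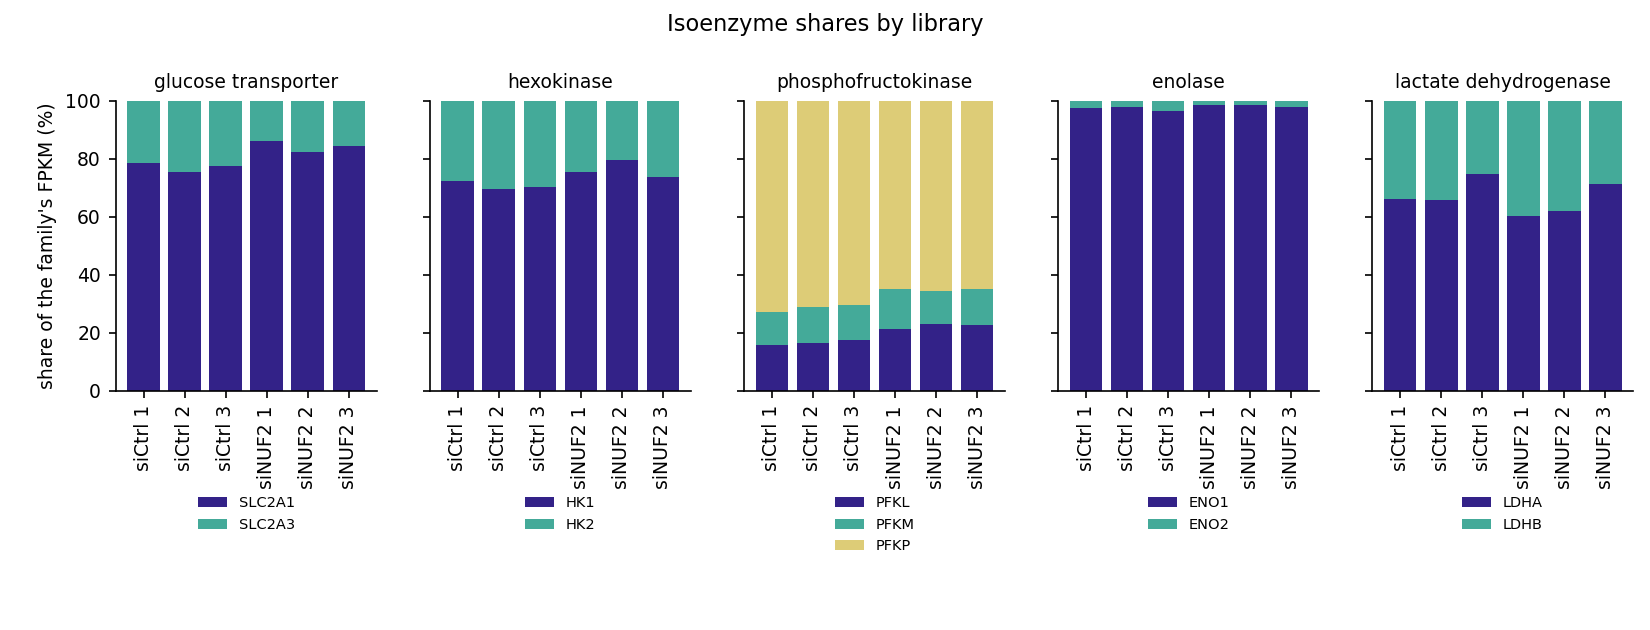
Share of the family's summed FPKM (vertical axis, percent) held by each isoenzyme in each of the 6 libraries, for glucose transporters, hexokinases, phosphofructokinases, enolases and lactate dehydrogenases. The phosphofructokinase panel shows PFKP at 70.5% to 73.0% in siCtrl and 64.8% to 65.5% in siNUF2 libraries.

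Targets of HIF-1 outside glycolysis were examined beside these genes. Of 25 listed, 22 were tested, and BNIP3L, a mitophagy receptor, was the 1 called, falling from 28.5 ± 5.02 to 13.5 ± 2.94 FPKM (SD, n = 3, log2 fold change -1.06, edgeR adjusted p = 0.0250). Over all genes 3.99% were called. With the block 7 were called lower and 1 higher (ERO1A, log2 fold change 0.78), against 14.5% of all genes. The replicate number passed for 8 of the 22, against 7.6% of all genes, and in 6 of these number 3 was highest, against 2.92%. CA9, the tumour-associated carbonic anhydrase, had 13.8, 27.9 and 100.05 FPKM with siCtrl and 8.18, 25.3 and 74.4 FPKM with siNUF2, number 3 being highest and number 1 lowest in both groups. It was 3.02 higher in number 3 than in number 1 on the log2 scale (edgeR adjusted p = 4.8e-04), and BNIP3, NDRG1 and P4HA2 were higher by 1.04, 0.99 and 0.88. These examples are all from the side higher in number 3, whereas the 8 also include genes in which number 3 was not highest. The median difference of number 3 minus number 1 was 0.42 over these 22 genes and 0.29 over the 10 glycolysis genes, and -0.002 over all genes tested.

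Of 13 regulators of HIF and MYC activity, 11 were tested and none was called without the block, the lowest being ARNT (log2 fold change -0.56, edgeR adjusted p = 0.0554) and the highest MYC (0.53, edgeR adjusted p = 0.115). HIF1A, which encodes the oxygen-regulated subunit of HIF-1 and is named after its values were seen, measured 96.7, 96.3 and 94.6 FPKM with siCtrl and 74.9, 65.2 and 75.8 FPKM with siNUF2 (log2 fold change -0.39, edgeR adjusted p = 0.0528). With the block, HIF1A, EPAS1 and ARNT were called lower and VHL, EGLN2 and MYC higher. HIF1A mRNA did not follow the number (edgeR adjusted p = 0.628), with a difference of 0.004 from number 1 to number 3. HIF-1 is controlled mainly through the stability of its protein, which was not measured here.

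The pathways that follow or branch from glycolysis are given beside the 3.99% of all genes called without the block and 14.5% with it. Of 14 genes for pyruvate entry into mitochondria, 3 fell and none rose, all 3 being subunits of the pyruvate dehydrogenase complex, namely PDHB from 18.5 to 11.8 FPKM (log2 fold change -0.63, edgeR adjusted p = 0.0157), DLD from 15.4 to 10.1 FPKM (-0.58, edgeR adjusted p = 0.0161) and DLAT from 16.8 to 11.3 FPKM (-0.56, edgeR adjusted p = 0.0300). The other 11 genes, further subunits of the complex among them, were not called, and with the block 3 of the 14 fell and none rose. Among 20 genes of the TCA cycle, IDH3A fell (-0.82, edgeR adjusted p = 0.0410) and SDHB rose (0.45, edgeR adjusted p = 0.0473), and with the block 4 rose and 3 fell. Among 12 genes of the glycogen and hexosamine branches, UGP2 (-0.78, edgeR adjusted p = 0.0178) and PYGL (-0.70, edgeR adjusted p = 0.0266) fell, and with the block 1 rose and 5 fell. Of the 10 pentose phosphate genes tested none was called in either fit or for number, the lowest and highest being PGD (-0.19) and RPIA (0.33). The 4 gluconeogenesis genes tested, from SLC37A4 (-0.05) to PCK2 (0.41), gave none either.

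GAPDH was then assessed as a reference gene. Its CPM was 4329 ± 120 (SD, n = 3) in siCtrl and 3909.5 ± 177 (SD, n = 3) in siNUF2 libraries, 9.68% lower by edgeR with a 95% interval from 20.7% lower to 2.83% higher (exact two-sided permutation test, p = 0.1, the smallest possible). With the replicate block the log2 interval ran from -0.28 to -0.01, which left out 0, at an edgeR adjusted p of 0.136. The SD of its log2 CPM over the 6 libraries was 0.094, at the 7.16 percentile of 11656 distinct gene names tested and at the 15.7 percentile of the 319 genes with a mean of at least 100 FPKM. ENO1 (0.093), PKM (0.0996) and PFKP (0.073) had similar values, whereas LDHA (0.300), PGK1 (0.398), HK2 (0.458) and SLC2A1 (0.531) were above the median SD of all genes, 0.211.

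Among 27 genes in common use as references, GAPDH had the fifth smallest SD, after IPO8 (0.063), TUBB (0.073), ATP5F1B (0.080) and SDHA (0.093), and the largest were those of B2M (0.328), TFRC (0.350) and PGK1 (0.398). None of the 27 was called between siNUF2 and siCtrl without the block (edgeR), and with it 2 were higher (RPL13A and EEF1A1) and 3 lower, among them GUSB and PGK1. Ordered instead by the size of the log2 fold change, GAPDH was number 19 of the 27, counted from the smallest. Its SD within a group was 0.040 in siCtrl and 0.065 in siNUF2 libraries on the log2 scale, beside the group difference of -0.15.

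**Figure D5:**
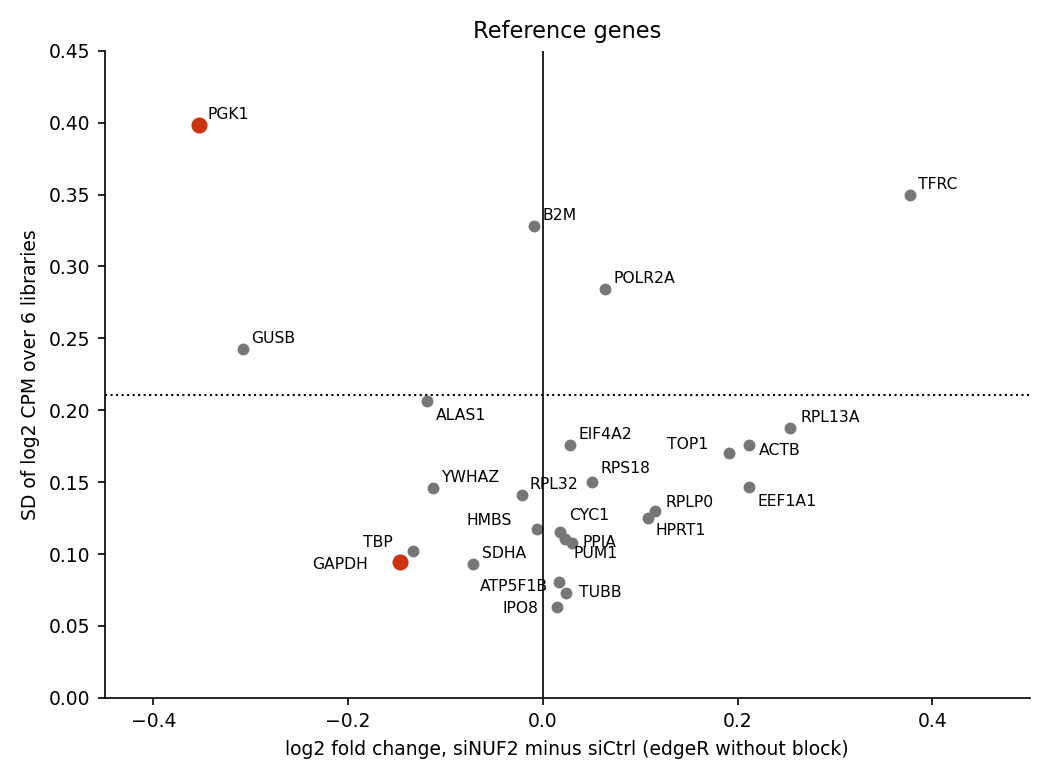
SD of log2 CPM over the 6 libraries (vertical axis) against the log2 fold change of siNUF2 minus siCtrl (horizontal axis, edgeR without the block) for the reference genes reported here, with GAPDH and PGK1 in red and the dotted line at the median SD of all genes, 0.211. GAPDH sits low at 0.094 but left of 0, and PGK1 is the most variable at 0.398.

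Division by GAPDH gave smaller reductions in siNUF2 cells than the other scales did. NUF2 differed by -2.86 on the log2 scale after division by the FPKM of GAPDH, by -3.0 as TMM-normalized CPM, by -3.01 against the geometric mean of the 27 reference genes and by -3.21 against ACTB, the cytoplasmic actin, which itself was 0.19 higher in siNUF2 libraries in log2 FPKM. For MAGT1, a magnesium transporter, these values were -1.04, -1.19, -1.19 and -1.40. For NIPA1, another magnesium transporter, they were -0.96, -1.11, -1.12 and -1.32, and for its relative NIPAL1 -0.95, -1.10, -1.11 and -1.31. In every case all siNUF2 libraries lay below all siCtrl libraries. Division by another reference gene moves all genes by the same amount, which was 0.36 between GAPDH and ACTB.

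The genes whose pattern over the 6 libraries came nearest to GAPDH, by the root mean square distance of centred log2 CPM, were KIAA0319L (0.023), CHMP5 (0.026), CYHR1 (0.028), KDELR2 (0.031) and PPP4C (0.031). Among the 9 other glycolysis genes, PKM was rank 8, ENO1 rank 34 and PFKP rank 130 by this distance, and SLC2A1 was the farthest at rank 10591. These ranks describe 6 libraries and carry no test.

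Near-identical and overlapping loci could have taken reads from these genes. In GRCh38, GAPDH (ENSG00000111640) lies on chromosome 12 from 6534512 to 6538371, and 22 rows named as its pseudogenes summed to between 0.282% and 0.347% of its count in each library. For TPI1 (ENSG00000111669, chromosome 12 from 6867119 to 6870948), 3 pseudogene rows held between 1.66% and 2.02%, and for LDHA (ENSG00000134333, chromosome 11 from 18394560 to 18408425), 5 rows held between 0.0649% and 0.309%. An antisense row, AC006064, overlaps the last part of GAPDH and held between 0 and 357 counts, against 234547 to 306186 for GAPDH. PGK1 (ENSG00000102144, chromosome X from 77910739 to 78129295) overlaps ATP7A, which held between 909 and 1215 counts against 45092 to 94429 for PGK1. Whether counting used strand is not given in the sources used here, and reads of antisense partners cannot be told apart.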

How the data were processed

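RNA-seq of 3 siCtrl and 3 siNUF2 libraries was used, grouped and numbered by the sample labels. Per the study's methods and the submitters' processing notes, reads were checked with fastp, aligned to GRCh38 with HISAT2 and calculated with StringTie, and no version is given. The authors deposited FPKM values and whole-number counts for 32985 genes. The counting tool and its strand setting are not given in the sources used here. All 12 columns of per-sample values matched a sample, and 0 did not. Counts of libraries in a group differed far more than sampling alone gives (chi-square over its degrees of freedom 90.2 to 132).

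From the counts, 11725 genes whose FPKM averaged at least 1 were normalized by TMM and tested by quasi-likelihood in edgeR, with Benjamini-Hochberg adjustment over all of them, at 0.05. Total counts per library, 61257859 to 69755291, set the counting precision. CPM and log2 values came from the same fit. Since the labels do not say that libraries are separate cultures, p-values measure only the spread between these libraries. Same-numbered libraries deviated together (correlations of deviations from the group means 0.412 to 0.514, other pairs -0.292 to -0.131), so a replicate block was fitted beside the model without it. Deviations sum to 0 within a group, so negative values of the other pairs follow from the positive ones and add nothing. The pairing comes from the labels' numbers and the correlations of same-numbered libraries.

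The members and gene lists were chosen with earlier results of these data known. The genes named are the 10 glycolysis genes, NUF2, MAGT1, NIPA1 and NIPAL1, the isoenzymes, of each other list at most 4 called genes by size of change or, with none, the highest and lowest, of the reference genes also the 3 smallest and 3 largest SDs, and the 5 genes most like GAPDH. HIF1A, ERO1A and genes named as called with the block or for number were added after their values were seen.

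Tools were edgeR 4.0.16, DESeq2 1.42.0 and limma 3.58.1 in R 4.3.3, and scipy 1.17.1, numpy 2.4.6, matplotlib 3.10.9 and pandas 2.3.3 in Python 3.11.15. Promoters and 3′ UTRs were read from the GRCh38 genome and GENCODE release 44. The fits were tested on simulated data. A few list genes and 1 promoter window are not reported here. Alternatives were DESeq2, its size factors, upper-quartile scaling, limma on log2(FPKM + 1) and log2(FPKM + 0.1), no filter, a mean FPKM of at least 5, the block, and leaving out libraries.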

Additional observations from a re-analysis of the deposited data

How the results depend on the processing

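The replicate block changed the calls named in the report (SLC2A1, HK2, PGK1 and LDHA, 0 to 4 of the 10 genes, and 468 to 1705 of all genes) and no other call among the 10 genes. Between siNUF2 and siCtrl without the block, DESeq2 called 972 genes and 1 of the 10 (HK2), and no filter on FPKM called 188 of 32985 genes. Leaving out 1 library gave between 124 and 251 genes and 0 of the 10, and leaving out both libraries of number 1, 2 or 3, an alternative added after seeing the data, gave 0, 47 and 39 genes (edgeR, with 1223, 1929 and 1399 at an unadjusted p under 0.05). With the block, a fit whose alternatives were likewise added after seeing the data, leaving out 1 library gave between 953 and 1762 genes and between 2 and 7 of the 10. Without both libraries numbered 1, 2 or 3 there were 1193, 1771 and 1020 genes and 4, 5 and 2 of the 10, and with no filter 0 genes and 0 of the 10 (edgeR, with 3894 genes and 5 of the 10 at an unadjusted p under 0.05). For the replicate number, DESeq2 called 2128 genes, no filter called 0 genes and 0 of the 10 (edgeR, with 3676 genes and 5 of the 10 at an unadjusted p under 0.05), and leaving out 1 library gave between 2 and 5 of the 10. Testing all 32985 genes adjusts over more tests, and any further cause was not tested. The log2 fold change of ALDOA turned to 0.029 without siCtrl library 3, 0.038 without siNUF2 library 1 and 1.2e-04 without both libraries numbered 1, and with the block to 0.0060 without 1 or both libraries numbered 1, and leaving out 1 library gave at the lowest -0.14 and, with the block, -0.151. That of PFKP turned to 0.0079 without both libraries numbered 1, and with the block to 0.011 without 1 or both of these, and leaving out 1 library gave at the lowest -0.119 with the block. Scaled to ACTB in place of GAPDH, the differences were -3.21 for NUF2, -1.40 for MAGT1, -1.32 for NIPA1 and -1.31 for NIPAL1. The share of PFKP by counts in place of FPKM differed by -7.50 percentage points. Of the alternative values of the main results, 179 were labelled as the same and 34 as moved, the limit for counts of genes being 1.5 times. The 34 include the scalings to ACTB and the PFKP share by counts, which kept their direction. With 3 libraries a group, an exact permutation test of a single gene or share could not pass 0.05.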
